A study of Mus musculus with 6 samples.

Results

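Glycolysis and hypoxia response genes were followed as a list of 39 mouse genes chosen by name from textbook roles. The choice was made with earlier results of these data known. The list held 4 glucose and lactate transporters, 9 enzymes of upper glycolysis, 7 of lower glycolysis and lactate dehydrogenase, 3 regulators of glycolysis, 7 subunits and oxygen sensors of hypoxia-inducible factor (HIF), and 9 HIF target genes. Of the 39 genes, 37 had a probe set naming that gene alone, out of 19938 genes named in that way on the array. The upper glycolysis enzyme gene Gpi1 and the enolase gene Eno1 had no such probe set and were not analysed here. A gene was tested when 3 or more of the 6 arrays showed it above the median signal of the whole array, which held for 34 of the 37 members and for 11424 genes in all. Each of the 34 lay above that median on all 6 arrays, whereas Ldhb, Epas1 and Egln3 lay below it on all 6.

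The cells were N2A, an established mouse neuroblastoma line grown in 10% serum. In the Pax6 knockdown group, 3 cultures were transiently transfected with a short hairpin RNA vector against Pax6, a transcription factor gene of brain and eye development. In the control group, 3 cultures received a non-targeting hairpin vector by the same route. Both groups were given 1.5 µg of vector with FuGENE 6 and harvested 3 days later, the hairpins being driven by a U6 promoter, and no sorting of transfected cells and no low-oxygen treatment were described. The comparison asked which transcripts differ when Pax6 is reduced. All values are deposited log2 signals of whole-transcript Affymetrix arrays, differences are knockdown minus control, and n is 3 arrays per group. The arrays measured RNA from a whole culture, so a change in the share of cells expressing a gene and a change in RNA per cell cannot be told apart.

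Glycolysis splits glucose into pyruvate and yields ATP without oxygen, and lactate dehydrogenase with the monocarboxylate transporters disposes of the pyruvate as lactate. HIF is a pair of proteins, an oxygen-labile alpha subunit and the stable partner ARNT. When oxygen is present, EGLN prolyl hydroxylases mark the alpha subunit and the VHL ubiquitin ligase removes it, and when oxygen falls HIF accumulates, binds a short DNA core and raises transporters, glycolytic enzymes, mitophagy receptors and its own inhibitors. Fast-growing tumour lines such as neuroblastoma commonly express these genes in ordinary culture.

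Pax6 itself had log2 values of 8.48, 8.30 and 8.50 on the knockdown arrays, against 8.79, 8.82 and 8.81 on the control arrays. All knockdown values were below all control values, and Pax6 fell by 23.2% (log2 fold change -0.38, SE 0.071, limma adjusted p = 0.0382). Array medians lay between 7.49 and 7.59. Of 13 sympathetic neuroblastoma markers on the array, 11 passed the low-value filter, among them Hand2, Gata2 and Phox2a, and Nefl and Nefm did not. At the 10% threshold used below, 2 of the 11 fell, Isl1 (log2 fold change -0.35) and Chga (-0.30), where 3.88% of all tested genes did. All knockdown arrays lay above all controls for 2 of the 11, Tubb3 and Elavl4, and below for 4, where 13.9% and 11.7% of all tested genes did so. None of 4 leukocyte and none of 4 astrocyte markers passed that filter, while 3 of 5 fibroblast, 1 of 4 endothelial and 2 of 3 oligodendrocyte and Schwann cell markers did, with none of these past the threshold. The part of any of these markers in the results below was not tested.

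At a false discovery rate (FDR) of 10%, 4 of the 34 tested members rose and 2 fell in the knockdown, and 28 did not pass. The 4 that rose were the HIF targets Ndrg1, Adm and Bnip3 and the oxygen sensor Egln1. The 2 that fell, P4ha1 and P4ha2, were also listed as HIF targets and encode the catalytic subunits of collagen prolyl 4-hydroxylase. None of the 20 tested glycolysis genes passed. Over all tested genes 6.67% were called, 2.79% higher and 3.88% lower. That share depended on signal level. With a filter at the 75th percentile of the array, 28 members stayed, 4 higher and 2 lower, where 17.5% of the 5982 genes tested passed. All 3 knockdown arrays lay above all 3 control arrays for 11 members, and below for 3 of the 34, where 13.9% and 11.7% of all tested genes did so. The median log2 fold change was 0.059 over the 34 members, 24 of them positive. Over all 11424 tested genes it was 0.017, with 6342 positive. A fit with the shared replicate number as a block, in which 17.9% of all genes passed, called 7 members higher and 2 lower, adding Pdk1, Eno2 and Pfkl.

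**Figure D1:**
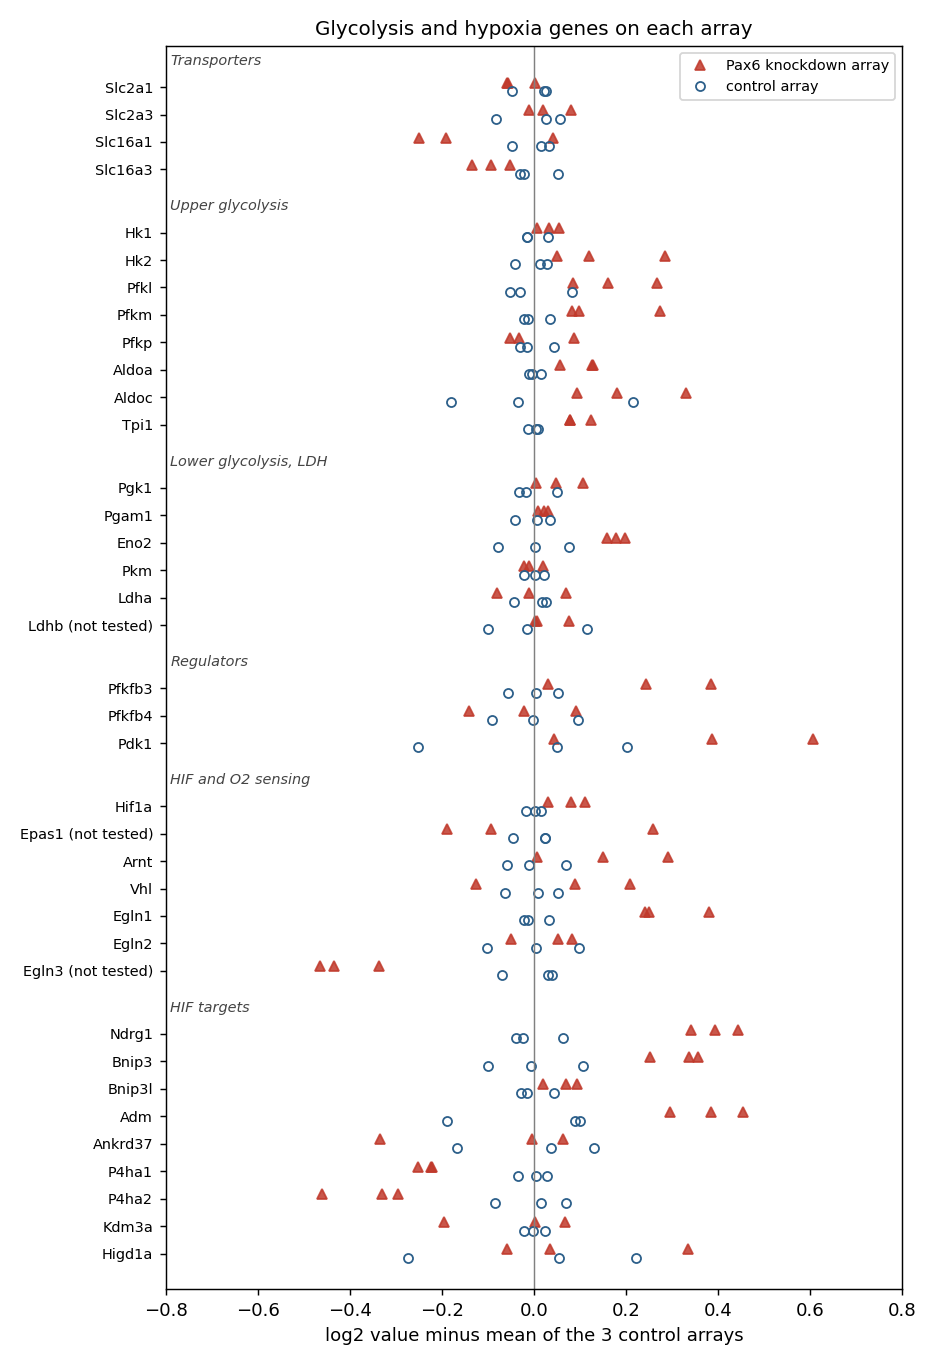
Log2 value of each of the 37 members, set against its average control value, for each Pax6 knockdown array (red triangles) and control array (open blue circles), grouped by role. Ndrg1, Adm, Bnip3 and Egln1 have all knockdown arrays to the right of the controls, P4ha1, P4ha2 and the untested Egln3 have them to the left, and most glycolysis genes lie within 0.2 of the control mean.

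Promoters of the called members are shown because HIF binds the core ACGTG or GCGTG, which can be read on either strand. RefSeq promoters of assembly GRCm38.p6, 250 bases before to 50 bases after the gene start, were matched by symbol for 35 of the 39 members. The 5 called members with one are printed 5′ to 3′ along the gene, in the order of their adjusted p, with every match to ACGTG or GCGTG on either strand in capitals (on the other strand these read CACGT and CACGC). Where CACGTG occurs, both strands hold ACGTG and the overlapping pair counts as 2 matches. The P4ha2 promoter lies at chr11:54100674-54100973 on the plus strand, Egln1 at chr8:124949205-124949504 on the minus strand, Bnip3 at chr7:138909457-138909756 on the minus strand, P4ha1 at chr10:59323046-59323345 on the plus strand and Adm at chr7:110627407-110627706 on the plus strand.
P4ha2: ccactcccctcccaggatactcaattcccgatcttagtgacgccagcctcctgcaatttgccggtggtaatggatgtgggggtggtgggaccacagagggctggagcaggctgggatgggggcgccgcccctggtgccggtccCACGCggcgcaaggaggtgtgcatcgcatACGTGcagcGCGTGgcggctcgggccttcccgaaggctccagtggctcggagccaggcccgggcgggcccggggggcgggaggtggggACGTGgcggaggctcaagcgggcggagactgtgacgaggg
Egln1: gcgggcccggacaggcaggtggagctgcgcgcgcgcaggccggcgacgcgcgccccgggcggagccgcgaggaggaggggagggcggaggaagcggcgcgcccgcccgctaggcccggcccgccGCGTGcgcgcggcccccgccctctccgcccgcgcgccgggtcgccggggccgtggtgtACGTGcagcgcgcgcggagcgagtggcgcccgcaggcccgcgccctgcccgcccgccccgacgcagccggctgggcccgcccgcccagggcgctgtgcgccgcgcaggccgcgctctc
Bnip3: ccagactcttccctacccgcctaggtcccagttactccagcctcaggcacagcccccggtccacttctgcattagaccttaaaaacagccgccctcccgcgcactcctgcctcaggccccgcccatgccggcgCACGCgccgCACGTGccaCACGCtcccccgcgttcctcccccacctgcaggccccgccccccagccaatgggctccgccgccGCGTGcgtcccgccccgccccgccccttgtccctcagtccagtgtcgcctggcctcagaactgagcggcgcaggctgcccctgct
P4ha1: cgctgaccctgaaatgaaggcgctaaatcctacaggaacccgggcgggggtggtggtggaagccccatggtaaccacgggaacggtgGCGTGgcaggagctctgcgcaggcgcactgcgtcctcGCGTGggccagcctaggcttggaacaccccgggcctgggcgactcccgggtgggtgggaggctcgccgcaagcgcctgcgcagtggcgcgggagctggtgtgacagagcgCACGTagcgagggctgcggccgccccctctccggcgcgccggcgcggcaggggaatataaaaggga
Adm: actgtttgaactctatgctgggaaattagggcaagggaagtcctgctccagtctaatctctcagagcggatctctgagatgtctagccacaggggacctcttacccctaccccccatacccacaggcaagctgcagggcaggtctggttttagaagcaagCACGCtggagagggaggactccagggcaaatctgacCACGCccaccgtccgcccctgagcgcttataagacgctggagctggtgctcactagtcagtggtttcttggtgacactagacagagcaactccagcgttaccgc
The Bnip3 window held 5 matches, 4 of them close together around a CACGTG, P4ha2 held 4, P4ha1 held 3, and Egln1 and Adm held 2 each. Ndrg1, the member with the lowest adjusted p, had no promoter among those matched. Among members with a promoter, a match was found for 3 of 3 that rose and 2 of 2 that fell. It was also found for 23 of 26 that were tested and did not pass, so the letters did not separate called members from the others. These counts are by gene, with a match in any promoter of the gene. By promoter, a match was in 40 of the 51 promoters of the 35 members (78.4%). Of all 32851 RefSeq promoters of 300 bases, 43.8% held ACGTG or GCGTG, as did 62% of the 11691 promoters of tested genes. A match is a description of these letters and not a measured binding site.

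Of the 9 genes listed as HIF targets, 9 were tested, 3 rose, 2 fell and 4 did not pass. Over all tested genes 2.79% rose and 3.88% fell. The log2 fold changes of the 9 ran from -0.36 to 0.39 with a median of 0.061. The list does not hold every HIF target. Egln1, Ldha, Pgk1, Pdk1 and Vegfa are also HIF targets but were listed under other roles, and of these only Egln1 passed. Ndrg1, a stress-induced gene of growth arrest and differentiation, had log2 values of 11.03, 10.98 and 11.08 on the knockdown arrays, against 10.70, 10.62 and 10.60 on the control arrays. The knockdown arrays were all above the highest control array. The means were 11.03 ± 0.051 and 10.64 ± 0.056 (SD, n = 3 each), so that Ndrg1 was 31.2% higher in the knockdown (log2 fold change 0.39, SE 0.062, limma adjusted p = 0.0241). It had the lowest adjusted p of the 34 members.

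Adm encodes adrenomedullin, a secreted vasodilator peptide. Its log2 values were 8.50, 8.34 and 8.43 on the knockdown arrays, against 8.15, 8.14 and 7.86 on the control arrays. There was no overlap, and the third control array was the lowest of the 6. The means were 8.43 ± 0.080 and 8.05 ± 0.16 (SD, n = 3 each), a signal 29.9% higher in the knockdown (log2 fold change 0.38, SE 0.092, limma adjusted p = 0.0744).

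Bnip3 and Bnip3l encode mitochondrial outer membrane receptors that recruit the autophagy machinery. Bnip3 had log2 values of 11.95, 11.86 and 11.97 on the knockdown arrays, against 11.72, 11.60 and 11.51 on the control arrays. All knockdown values were above all control values, and Bnip3 was 24.4% higher in the knockdown (log2 fold change 0.31, SE 0.072, limma adjusted p = 0.0641). Bnip3l had overlapping groups, with a log2 fold change of 0.061 (95% confidence interval -0.073 to 0.19, limma adjusted p = 0.666). The Bnip3 gene lies on chromosome 7, but the probe set with the highest mean had 20 of 20 neighbouring array identifiers on chromosome 14. The other probe set of Bnip3, with its neighbours on chromosome 7, gave a log2 fold change of 0.36 (limma adjusted p = 0.0533, SE 0.077, when such probe sets were used for all genes). For Bnip3l, a gene of chromosome 14, the probe set of highest mean had 19 of 20 neighbours on chromosome 12. In that same fit its probe set beside chromosome 14 identifiers gave 0.0995 (limma adjusted p = 0.443).

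The prolyl 4-hydroxylase genes moved the other way. P4ha1 had log2 values of 11.73, 11.70 and 11.72 on the knockdown arrays, against 11.95, 11.98 and 11.91 on the control arrays. The knockdown arrays lay closely together and below every control array, and P4ha1 fell by 14.9% (log2 fold change -0.23, SE 0.055, limma adjusted p = 0.0699). P4ha2 had log2 values of 10.55, 10.42 and 10.59 on the knockdown arrays, against 10.95, 10.90 and 10.80 on the control arrays. These groups also did not overlap, and P4ha2 fell by 22.2% (log2 fold change -0.36, SE 0.072, limma adjusted p = 0.0449). The P4ha1 call was lost when each array was centred on its own median (adjusted p = 0.127), and over all alternatives its adjusted p ranged from 0.00633 to 0.589.

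The other HIF targets overlapped between groups. Kdm3a, a histone H3 lysine demethylase gene, had a log2 fold change of -0.042 (limma adjusted p = 0.842, SE 0.078). Ankrd37, an ankyrin repeat gene, had -0.092 (SE 0.12, limma adjusted p = 0.767), and its values of 8.40, 8.07 and 8.47 on the knockdown arrays, against 8.54, 8.44 and 8.24 on the control arrays, crossed. Higd1a, which encodes a small inner mitochondrial membrane protein, had a log2 fold change of 0.10 with one of the widest intervals of the list, -0.23 to 0.44 (limma adjusted p = 0.782).

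**Figure D2:**
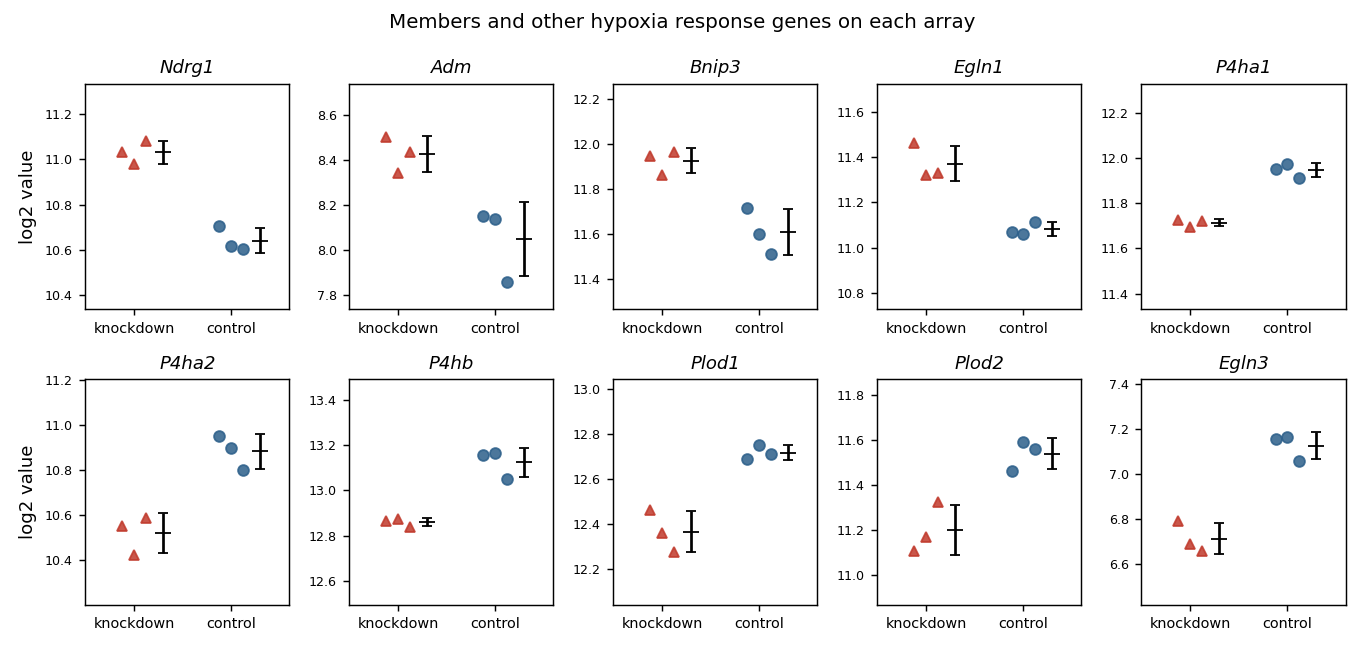
Log2 value on each array for the called members Ndrg1, Adm, Bnip3, Egln1, P4ha1 and P4ha2, for P4hb, Plod1 and Plod2 of the other hypoxia response list, and for Egln3, with Pax6 knockdown arrays (red triangles) left of control arrays (blue circles) and the mean ± SD of the 3 arrays as black bars. The groups do not overlap in any panel, and Egln3 lies below the low-value filter at 6.66 to 7.17.

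Oxygen sensing genes differed among themselves. Of the 7 listed, 5 were tested, 1 rose and 4 did not pass, where 2.79% of all tested genes rose. All 5 fold changes were positive, with a median of 0.074, as were 6342 of the 11424 tested genes. The sign of Vhl changed in 1 of the alternatives tried and that of Egln2 in 2. Egln1 encodes PHD2, the main prolyl hydroxylase acting on HIF-1 alpha and itself a HIF target. It had log2 values of 11.46, 11.32 and 11.33 on the knockdown arrays, against 11.07, 11.06 and 11.12 on the control arrays. All knockdown values were above all control values, and Egln1 was 22.3% higher in the knockdown (log2 fold change 0.29, SE 0.063, limma adjusted p = 0.0571).

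Egln3 encodes PHD3, the related hydroxylase that is typically the more strongly induced by low oxygen. It had log2 values of 6.79, 6.69 and 6.66 on the knockdown arrays, against 7.16, 7.17 and 7.06 on the control arrays. Knockdown and control values were separate and the mean difference was -0.41, opposite in sign to that of Egln1, but every value lay below the array median and the gene was not in the tested set. When the low-value filter was lowered to the 25th percentile, Egln3 passed the threshold as lower in the knockdown (limma adjusted p = 0.0413), and without a filter its adjusted p was 0.0615. Near background the array compresses differences, so the size of this one is uncertain.

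Egln2, which encodes PHD1, had a log2 fold change of 0.028 (limma adjusted p = 0.894) with overlapping groups. Hif1a, the oxygen-labile alpha subunit, had log2 values of 11.99, 11.91 and 11.96 on the knockdown arrays, against 11.90, 11.86 and 11.88 on the control arrays. These were also separate, yet the log2 fold change was 0.074 (95% confidence interval -0.057 to 0.20) and did not pass (limma adjusted p = 0.563). HIF-1 alpha is controlled mainly as a protein, which the array does not measure. Arnt, its partner, had a log2 fold change of 0.15 (limma adjusted p = 0.394, SE 0.083), and Vhl had 0.057 (SE 0.091, limma adjusted p = 0.815), both with overlapping groups. Epas1, the gene of HIF-2 alpha, lay below the filter at 6.60, 6.96 and 6.51 on the knockdown arrays, against 6.72, 6.72 and 6.65 on the control arrays.

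The glycolysis genes were read apart from the HIF targets. Of 23 listed, 21 were on the array and 20 were tested. Their log2 fold changes ran from -0.13 to 0.35 with a median of 0.042, 14 positive and 6 negative. Over all tested genes 6342 were positive and 5082 negative. By limma none passed 10% FDR, where 6.67% of all tested genes did, and 3 of the 20 had an unadjusted p below 0.05, as did 2146 of the 11424 tested genes. All knockdown arrays lay above all control arrays for 6 of the 20 and below for 1, beside 13.9% and 11.7% of all tested genes. Within replicate numbers 1, 2 and 3 the median differences were 0.048, 0.024 and 0.10, beside 0.038, -0.019 and 0.026 over all tested genes. With the replicate block, 3 of the 20 passed, where 17.9% of all tested genes did.

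Of the transporters, none of 4 passed and their median log2 fold change was -0.066. Slc2a1 (GLUT1), the basal glucose transporter, had log2 values of 12.44, 12.38 and 12.39 on the knockdown arrays, against 12.46, 12.47 and 12.39 on the control arrays. These overlapped, with a log2 fold change of -0.037 (95% confidence interval -0.17 to 0.096, limma adjusted p = 0.808). Slc2a3 (GLUT3), the neuronal glucose transporter, had 0.030 (95% confidence interval -0.12 to 0.18, limma adjusted p = 0.869). Slc16a3 (MCT4), which exports lactate from glycolytic cells, was the only glycolysis gene with all knockdown arrays below the controls, at 12.90, 12.94 and 12.98 on the knockdown arrays, against 13.01, 13.09 and 13.01 on the control arrays. That gap was small, with a log2 fold change of -0.094 (limma adjusted p = 0.457, SE 0.059). Slc16a1 (MCT1), the more widely expressed lactate carrier, had -0.13 (SE 0.085, limma adjusted p = 0.463), with the first knockdown array at 12.13 above the controls and the other two below them at 11.84 and 11.90.

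In upper glycolysis, which spends ATP to make the triose phosphates, all 8 tested genes had positive log2 fold changes, from 0.00069 to 0.20, but none passed. The sign of Pfkp changed in 5 of the alternatives tried and that of the other 7 in none. In 5 of the 8 the knockdown arrays were all above the control arrays, as in 13.9% of all tested genes. Pfkl, the liver-type phosphofructokinase subunit of the committed step, had log2 values of 11.07, 11.14 and 11.25 on the knockdown arrays, against 10.95, 10.93 and 11.07 on the control arrays. The lowest knockdown array and the highest control array were nearly equal, and the log2 fold change was 0.17 (SE 0.072, limma adjusted p = 0.252). The replicate block brought it past the threshold (adjusted p = 0.0907), and over the alternatives it ranged from 0.0173 to 0.760.

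Pfkm, the muscle-type subunit, had log2 values of 11.33, 11.15 and 11.13 on the knockdown arrays, against 11.09, 11.03 and 11.04 on the control arrays. They did not overlap, with a log2 fold change of 0.15 (limma adjusted p = 0.293, SE 0.070). Pfkp, the platelet-type subunit, showed the smallest difference of the list, 0.00069, with a 95% confidence interval of -0.15 to 0.15. Hk2, the inducible hexokinase, had log2 values of 10.20, 9.97 and 10.04 on the knockdown arrays, against 9.88, 9.95 and 9.93 on the control arrays. The first knockdown array stood highest, and the log2 fold change was 0.15 (SE 0.074, limma adjusted p = 0.326). Hk1, the constitutive hexokinase, had 0.031 (limma adjusted p = 0.837). Its probe set of highest mean had 19 of 20 neighbouring identifiers on chromosome 14 while the gene lies on chromosome 10, and the probe set beside chromosome 10 identifiers gave 0.047 (limma adjusted p = 0.764).

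For aldolase and triosephosphate isomerase the differences were small. Aldoa had log2 values of 13.87, 13.95 and 13.94 on the knockdown arrays, against 13.81, 13.83 and 13.81 on the control arrays. Tpi1 had 13.09, 13.09 and 13.14 on the knockdown arrays, against 13.02, 13.02 and 13.00 on the control arrays. Neither pair of groups overlapped, yet the log2 fold changes of 0.10 for Aldoa (SE 0.056, limma adjusted p = 0.379) and 0.093 for Tpi1 (SE 0.055, limma adjusted p = 0.419) did not pass. Aldoc, the brain-type aldolase, had a larger but noisier log2 fold change of 0.20 (limma adjusted p = 0.379, SE 0.11), with values of 11.68, 11.45 and 11.53 on the knockdown arrays, against 11.57, 11.32 and 11.17 on the control arrays. These overlapped.

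In lower glycolysis, which recovers ATP, the median log2 fold change of the 5 tested genes was 0.020. Eno2, the neuron-specific enolase and a marker of neuroendocrine tumours, had log2 values of 11.89, 11.91 and 11.93 on the knockdown arrays, against 11.65, 11.81 and 11.73 on the control arrays. The knockdown arrays were all above the controls and closer to each other, and the log2 fold change was 0.18 (SE 0.063, limma adjusted p = 0.172). It passed with the replicate block (adjusted p = 0.0894), within a range of 0.0194 to 0.773 over the alternatives.

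The 4 other tested genes of this stretch had overlapping groups. Ldha, which encodes the lactate dehydrogenase subunit typical of glycolytic tissue and a HIF target, had log2 values of 14.09, 13.94 and 14.01 on the knockdown arrays, against 14.04, 14.05 and 13.98 on the control arrays. Its log2 fold change was -0.0076, with a 95% confidence interval of -0.15 to 0.14. Pkm, the pyruvate kinase gene, had -0.0042 (95% confidence interval -0.13 to 0.12), and the array value does not separate its M1 and M2 splice forms. Pgam1, a phosphoglycerate mutase gene, had 0.020 (95% confidence interval -0.11 to 0.15) and Pgk1, a phosphoglycerate kinase gene and a HIF target, 0.052 (95% confidence interval -0.087 to 0.19). For both, the probe set of highest mean had identifiers among those of another chromosome than the gene's, and the one on the gene's own chromosome gave 0.031 and 0.076. Ldhb, the heart-type lactate dehydrogenase subunit, was below the filter, at 6.51, 6.44 and 6.44 on the knockdown arrays, against 6.55, 6.34 and 6.42 on the control arrays. That probe set had 17 of 20 neighbouring identifiers on chromosome 19, while the gene lies on chromosome 6.

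Among the 3 regulators, Pdk1 encodes a kinase that shuts pyruvate dehydrogenase and keeps pyruvate out of mitochondria, and it is a HIF target. It had log2 values of 8.27, 7.93 and 8.49 on the knockdown arrays, against 8.09, 7.63 and 7.93 on the control arrays. The groups overlapped, and the log2 fold change of 0.35 (SE 0.16) was the largest of the glycolysis genes and did not pass (limma adjusted p = 0.291). Within replicate numbers 1, 2 and 3 the differences were 0.18, 0.29 and 0.56, and with the replicate block Pdk1 passed (SE 0.078, adjusted p = 0.0377). Over the alternatives its adjusted p ranged from 0.00608 to 0.873.

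Pfkfb3 and Pfkfb4 encode bifunctional enzymes that set the level of fructose 2,6-bisphosphate, the activator of phosphofructokinase. Pfkfb3 had log2 values of 9.81, 9.46 and 9.67 on the knockdown arrays, against 9.48, 9.43 and 9.37 on the control arrays. The second knockdown array lay within the control range, and the log2 fold change was 0.22 (SE 0.093, limma adjusted p = 0.258). Pfkfb4 had -0.024 (SE 0.081, limma adjusted p = 0.919).

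**Figure D3:**
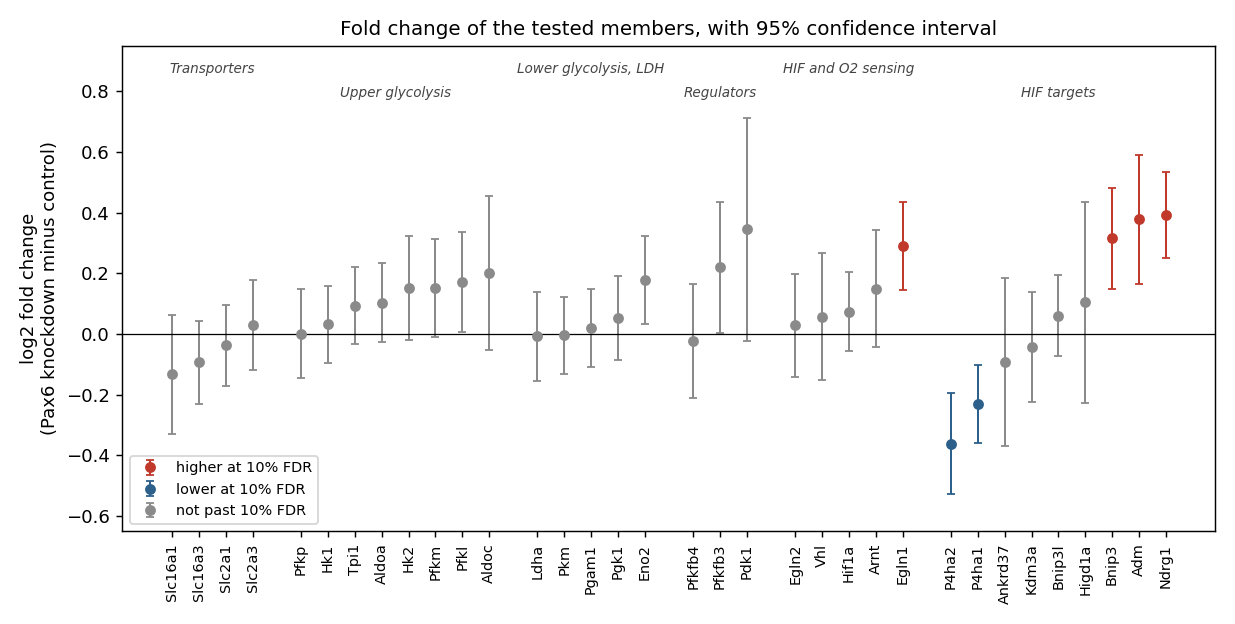
Log2 fold change (Pax6 knockdown minus control) of each of the 34 tested members with its 95% confidence interval, ordered by size within each role, red for higher and blue for lower at 10% FDR and grey for not passed. The 6 called members run from -0.36 for P4ha2 to 0.39 for Ndrg1, and the 8 upper glycolysis genes lie at or above 0.

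Related genes were set against each other by the change in the difference of their log2 values, which leaves out any shift shared by both. Of 12 pairs, chosen with earlier results of these data known, 11 could be computed. With 3 against 3 arrays the exact two-sided permutation test cannot go below p = 0.1. The groups did not overlap for 7 pairs, each at that smallest p (Benjamini-Hochberg adjusted over the pairs, 0.157). Among single tested genes, 13.9% had all knockdown arrays above the controls and 11.7% had them below. No such share was computed for other pairs of genes, so the count of pairs has no background to stand beside. The knockdown minus control difference was 0.25 for Bnip3 relative to Bnip3l and 0.24 for Pfkfb3 relative to Pfkfb4. It was -0.15 for Pfkp relative to Pfkm, 0.13 for P4ha1 relative to P4ha2, 0.12 for Hk2 relative to Hk1 and -0.067 for Slc2a1 relative to Slc2a3. For Egln3 relative to Egln1 it was -0.70, but Egln3 lay below the low-value filter on all 6 arrays, so the size of that difference is uncertain. Epas1 and Ldhb lay below the filter as well. For Bnip3, Bnip3l, Hk1 and Ldhb the probe set used had its identifier neighbours on another chromosome than the gene's. The other 4 pairs overlapped, with exact p of 0.5 for Aldoa and Aldoc, 0.7 for Hif1a and Epas1, and 0.9 for Ldha with Ldhb and for Slc16a1 with Slc16a3.

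Other genes of the same pathways were taken from lists that were also chosen with earlier results of these data known. Their counts stand beside the 6.67% of all tested genes that were called. Of 9 further glycolysis and glucose entry genes tested, 1 fell and 8 did not pass. It was Slc2a6 (GLUT6), an intracellular hexose transporter, at 11.02, 11.06 and 11.01 on the knockdown arrays, against 11.26, 11.28 and 11.23 on the control arrays (log2 fold change -0.23, SE 0.055, limma adjusted p = 0.0769). The groups did not overlap. Of 10 genes of pyruvate entry into mitochondria, 1 rose, Dlat, the acetyltransferase subunit of pyruvate dehydrogenase (log2 fold change 0.27, SE 0.063, limma adjusted p = 0.0673). Of 7 genes of the pentose phosphate branch, 1 rose, Rpia, which makes ribose 5-phosphate (log2 fold change 0.29, SE 0.077, limma adjusted p = 0.0880).

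Of 12 further HIF pathway genes none passed by limma, and 1 had an unadjusted p below 0.05. The lowest p belonged to P4htm, a transmembrane prolyl hydroxylase gene (log2 fold change -0.27, adjusted p = 0.106), and Cited2, an inhibitor of HIF that binds its coactivators (log2 fold change -0.13, adjusted p = 0.329). Of 29 other hypoxia response genes, 2 rose and 3 fell, where 2.79% and 3.88% of all tested genes did. Hmox1, which encodes the haem-degrading enzyme also induced by oxidative stress, had log2 values of 11.22, 11.22 and 11.33 on the knockdown arrays, against 10.98, 10.91 and 10.81 on the control arrays. The groups did not overlap (log2 fold change 0.36, SE 0.069, limma adjusted p = 0.0415). Gys1, the glycogen synthase gene, also rose (log2 fold change 0.29, SE 0.064, limma adjusted p = 0.0600). Vegfa, the vascular growth factor gene and a classical HIF target, had 0.046 (SE 0.061, limma adjusted p = 0.767).

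Of the 3 that fell, P4hb encodes protein disulphide isomerase, the partner subunit of P4HA1 and P4HA2, and had log2 values of 12.87, 12.88 and 12.84 on the knockdown arrays, against 13.16, 13.17 and 13.05 on the control arrays. The groups did not overlap (log2 fold change -0.27, SE 0.060, limma adjusted p = 0.0632). The lysyl hydroxylase genes Plod1 (log2 fold change -0.35, SE 0.067, limma adjusted p = 0.0402) and Plod2 (log2 fold change -0.34, SE 0.076, limma adjusted p = 0.0606) were likewise lower on every knockdown array. With 1 array left out at a time, Hmox1 stayed past the threshold in 3 of 6 fits, Plod1 in 2, and Gys1, Plod2, P4hb, Slc2a6, Dlat and Rpia in 1 each. All 8, which had been called without the block, also passed with the replicate block, where 17.9% of all tested genes did.

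The calls rested on the full set of arrays. When 1 array was left out at a time, Ndrg1 stayed past the threshold in 3 of 6 fits and failed without knockdown array 3, control array 2 or control array 3, with a highest adjusted p of 0.146. P4ha2 stayed in 2 fits, those without knockdown array 1 or 2, and Bnip3 in 2, those without knockdown array 2 or control array 1. Egln1, Adm and P4ha1 stayed in 1, the fit without knockdown array 2. Their highest adjusted p were 0.195 for P4ha2, 0.231 for Bnip3, 0.224 for Egln1, 0.237 for Adm and 0.272 for P4ha1. Fewer genes were called in all in most of these fits, from 0.446% to 11.2% of those tested. None of the 6 members changed sign in any fit, but their groups did not overlap, so leaving out an array could not change it. With the replicate block, where 17.9% of all tested genes passed, all 6 passed, at adjusted p from 0.0125 for Ndrg1 to 0.0402 for P4ha1. The block leaves the fold changes as they were.

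**Figure D4:**
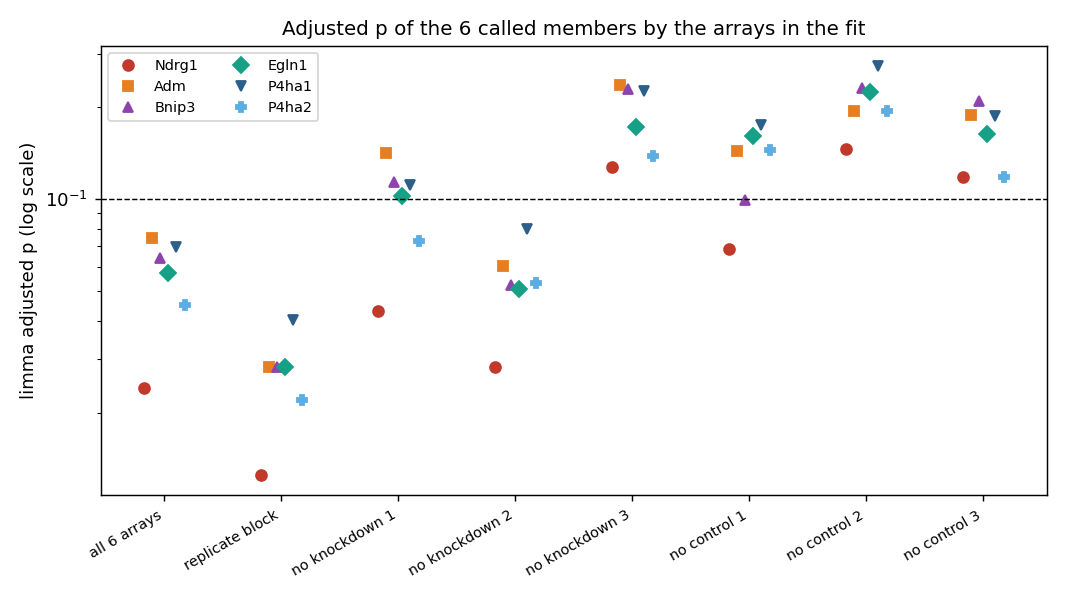
Limma adjusted p (log axis) of the 6 called members with all 6 arrays, with the replicate number as a block, and with each array left out in turn, the dashed line marking 10% FDR. With the block and without knockdown array 2 all 6 lie below the line, and without knockdown array 3, control array 2 or control array 3 all 6 lie above it.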

How the data were processed

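RNA of 3 Pax6 knockdown and 3 control N2A cultures, which the labels call biological replicates, was labelled (200 ng each) and hybridised to 1 array per culture. The deposited values are log2 signals, 1 per probe set. The authors had corrected background by RMA, quantile-normalised the arrays and summarised RefSeq and full-length mRNAs, and their own limma test left out genes that were low throughout. The submitters' processing notes name limma and RMA. The build of the annotation, tool versions and the level of that filter are not given in the sources used here. Between-array quantile normalisation hides a change in total RNA per cell, RMA compresses differences near background, and the number of arrays limits precision. There were 0 columns of other samples.

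Gene names came from the platform's annotation of its probe sets (21789 with 1 gene symbol, 1621 with several, 12146 with none), and 21698 of the first kind matched RefSeq GRCm38.p6 by gene identifier, with 0 symbols updated. The 1-symbol probe set of highest mean over the 6 arrays stood for its gene. Genes whose signal exceeded the array's median on 3 or more arrays were tested with lmFit and eBayes (limma 3.58.1, R 4.3.3), two-sided, with Benjamini-Hochberg adjustment over all 11424 genes and a threshold of 10% FDR, as in the study.

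All 39 members were to be named, with every gene of the other pathway lists past 10% FDR, or the 2 of lowest p where none passed. Vegfa was named outside this rule. The members, lists and tests were chosen with earlier results of these data known. Replicate numbers are shared by both groups, but the labels do not say what they mark. Deviations from group means correlated at 0.57, 0.32 and 0.23 within numbers 1, 2 and 3, each over 0.1, so a fit with the number as a block was run beside the one reported, which has no block. Knockdown array 2 with control array 3 also reached 0.18. The numbers come from the sample titles, while the choice to run a block was made from the data. Alternatives were a replicate block, arrays left out singly and by number, other filters, array centring, a second quantile normalisation, array weights, a trended robust prior and the mean of a gene's probe sets. A further one, the probe set whose identifier neighbours lie on the gene's own chromosome, was added after seeing the data.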

Additional observations from a re-analysis of the deposited data

How the results depend on the processing

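The counts of members past the threshold, 4 higher and 2 lower, depended on which arrays and genes entered. With 1 array left out they ranged from 0 to 6 higher and from 0 to 2 lower, and with both arrays of replicate number 1, 2 or 3 left out they were 0 higher and 0 lower each time. With the replicate block, where 17.9% of all tested genes passed, 7 were higher and 2 lower, and no member's call was lost. Array weights gave 15 higher and 3 lower, where 37.1% of all genes passed. Without a filter on low values 1 was higher and 1 lower (Ndrg1 and Egln3) of 37, and with the 25th percentile filter 1 higher and 2 lower. The 75th percentile filter left 28 members, 4 higher and 2 lower, where 17.5% of all genes tested passed. The variance filter left 17 members and called 0 higher and 0 lower. Array centring gave 4 higher and 1 lower. Over these alternatives no called member changed sign. Leaving out arrays could not bring that about, because the groups of each called member did not overlap. The median of the HIF targets, 0.061, ranged from -0.033 to 0.083 with 1 array left out, being below 0 without knockdown array 1 (-0.011) or control array 2 (-0.033), and was 0.0091 over the 6 left by the 75th percentile filter. The glycolysis median, 0.042, ranged from 0.030 to 0.067 with 1 array left out, was 0.20 over the 5 genes left by the variance filter and 0.083 with array weights. The causes were not tested, beyond the fewer arrays or genes in a fit. Of all tested genes, 319 were higher and 443 lower with all arrays, 1024 and 1018 with the replicate block, 2639 and 1600 with array weights, 601 and 782 after a second quantile normalisation and 68 and 177 without a filter. Groups of 3 arrays are too few for a check of single outlying arrays, and genes near the array median carry the smallest signal over background.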
